A study of Mus musculus with 8 samples.

Results

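Tertiary neurospheres carrying a lentivirus that expresses miR-17 were compared with tertiary neurospheres carrying a control miRNA, with 1 array on each side. The comparison takes in every gene with a probe well above background on at least 1 of the 2 arrays, which was 24818 of the 35426 genes and other named features on the array. Neurospheres are balls of neural stem cells and their progeny that grow in suspension. The source here was EB3, a line of mouse embryonic stem cells. Embryoid bodies, formed with the BMP inhibitor Noggin, were dissociated on day 6, exposed to virus at a multiplicity of infection of about 25, and cultured for 6 days with 20 ng/ml FGF2 as primary neurospheres (P0). Tertiary neurospheres (P2) were taken 6 days after secondary neurospheres had been passaged, so they had gone through 2 further rounds of dissociation and regrowth. The control miRNA is directed against lacZ, a gene that mouse cells do not have. The 6 other arrays were miR-17 and control miRNA at P0, and a control shRNA against firefly luciferase and an shRNA against Nr2f1 and Nr2f2 at each passage. All 8 cultures were EB3-derived, infected and grown with FGF2 in the same way, and each group was 1 array. The labels give no level of mature miR-17, no promoter for the vector and no share of infected cells, and the arrays measured longer RNAs. The 20 listed neural stem and progenitor genes were all among the genes compared, with Sox2 at 3.73 and 3.41 and Vim at 7.94 and 7.47 on the control miRNA and miR-17 arrays (log2 signal relative to the array's 75th percentile). No difference between the 2 P2 arrays therefore has a replicate check, and none is given a p-value.

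MicroRNAs are short RNAs that guide Argonaute proteins to messenger RNAs, mostly through pairing of the bases near the microRNA's 5′ end (the seed) with sites in the messenger's 3′ untranslated region, and this lowers the messenger's translation and stability. miR-17 belongs to a cluster of microRNAs cut from 1 host transcript, Mir17hg, which is transcribed in proliferating progenitors and falls as neural tissue matures. In neural progenitors, miR-17 and its relatives are known for acting on the p38 kinase Mapk14 and for keeping the neurogenic state that precedes the production of glia. The study is titled as one on regulators of the timing of neuron subtype differentiation, and miR-17 in late-passage neurospheres bears on that question.

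The mature sequences below are shown because the seed defines which sites can be searched for in the array's probes. They come from RefSeq (GRCm38.p6), in which miR-17-5p lies at chr14:115043684-115043706 on the + strand. The seed, bases 2 to 8, is in capitals.
mmu-miR-17-5p: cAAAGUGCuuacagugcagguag
mmu-miR-20a-5p: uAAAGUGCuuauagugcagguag
mmu-miR-20b-5p: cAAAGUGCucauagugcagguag
mmu-miR-93-5p: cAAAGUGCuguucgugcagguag
mmu-miR-106a-5p: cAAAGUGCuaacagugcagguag
mmu-miR-106b-5p: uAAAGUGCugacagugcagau
mmu-miR-18a-5p: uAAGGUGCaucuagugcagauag
mmu-miR-19a-3p: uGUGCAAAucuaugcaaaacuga
Of 1679 mature mouse names in the table, 7 had the miR-17-5p seed: the first 6 above and miR-6383. miR-18a and miR-19a come from the same cluster and have other seeds.

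Relative to control miRNA, neuronal and neurogenic genes were higher with miR-17 in tertiary neurospheres, and astrocyte, neural stem cell and miR-17 target genes were lower. The medians of these lists were modest: 0.52 on the log2 scale for 30 neuron genes, 0.59 for 27 proneural and neurogenesis genes, -0.40 for 20 astrocyte genes, -0.33 for 20 neural stem and progenitor genes and -0.25 for 40 reported or predicted miR-17 targets. Over all 24818 genes the median was -0.01, and over the 15352 that have a usable gene symbol it was -0.02. Of the 27 proneural genes 22 were above background with control miRNA, and with both arrays above background their median was 0.49. Against the control shRNA at P2 the 5 list medians were, in the same order, -1.18, -0.16, 0.73, -0.17 and 0.10. Only the neural stem and progenitor list kept its sign. Levels in the text are log2 signals relative to the 75th percentile of the same array, so 0 is the level of a fairly bright probe, and differences are the miR-17 array minus the control miRNA array unless stated otherwise.

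At 2-fold, 890 genes were higher with miR-17 (3.59%) and 334 were lower (1.35%). Most of that excess came from dim probes. Of the 22571 genes whose probe was well above background on both arrays, 259 were higher (1.15%) and 167 lower (0.74%). A further 1884 genes were above background on the miR-17 array alone and 259 on the control miRNA array alone. The miR-17 array was the brighter of the pair, with 63.4% of spots well above background against 58.3%, a 75th percentile of 720 against 579 intensity units, and a lower detection floor (-5.42 against -5.00). The part of detection in the excess of higher genes was not tested. After normexp background correction, which pulls dim probes together by construction, 77 genes were higher and 75 lower. Of the 111 genes named under the naming rule that reached 2-fold, 72 were under it in at least 1 other processing and 4 had no value in some of them. The remaining 35 reached it in every one, among them Dcx, Myt1l, Elavl4, Scrt1, Ebf3, Lhx1, Lhx5, Tal1, Gjb6, Acsbg1, Capn11 and Foxb1.

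The second control array at P2 gave a measure of how far 2 control cultures, infected with different vectors, lay apart. The control miRNA and control shRNA arrays differed at 2-fold for 5724 genes (23.1%), 2795 higher and 2929 lower in the control miRNA culture, against 1224 (4.93%) between miR-17 and its own control. The SD over genes was 0.99 for the difference between controls and 0.49 for the miR-17 difference. In the control miRNA culture astrocyte genes were higher (median 1.40) and neuron genes lower (median -1.89) than in the control shRNA culture. Vector system and slide column go together here, so these cannot be told apart as a source of the difference between controls. The level on the miR-17 array lay between the 2 controls for 54.6% of all genes, for 45.3% of the genes that were higher at 2-fold and for 38.9% of those that were lower. At 2-fold from both controls, 244 genes were above (0.983%) and 95 below (0.383%). The filter favoured the higher side for genes that entered through the miR-17 array alone. Among 22645 genes read only by probes above background on both arrays, 57 were above and 48 below.

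Neuron genes, which mark post-mitotic neurons, were higher with miR-17 for 26 of 30 members, and 5 reached 2-fold while 0 were lower at 2-fold. Over the genes with a usable symbol 2.93% were higher and 1.21% lower at 2-fold, the background for the counts of listed genes. Dcx, the microtubule protein doublecortin of migrating neurons (chromosome X, 140290854 to 140290913 of mm9), was 0.08 on the control miRNA array, 1.37 on the miR-17 array and 2.76 on the control shRNA array, a 2.44-fold difference for miR-17. Myt1l, a zinc finger factor of neurons (chromosome 12, 30605595 to 30605654), was -1.15, 0.17 and 1.38 on the same 3 arrays, 2.50-fold higher with miR-17. The 3 Dcx probes ranged from 0.82 to 1.78 and the 3 Myt1l probes from 0.61 to 1.32. Elavl4, a neuronal RNA-binding protein, was -0.18, 0.99 and 1.83, and Celf3, a neuronal splicing regulator, was -1.31, -0.01 and 1.07. For each of these 4 genes the miR-17 level lay between the controls. This was so for 24 of 30 neuron genes, and the median of miR-17 minus the control shRNA was -1.18. Some widely used markers differed little: Map2 by -0.05, Syp by -0.06 and Stmn2 by -0.09. Tubb3, neuronal beta tubulin, differed by 0.65, above the list median of 0.52.

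**Figure D1:**
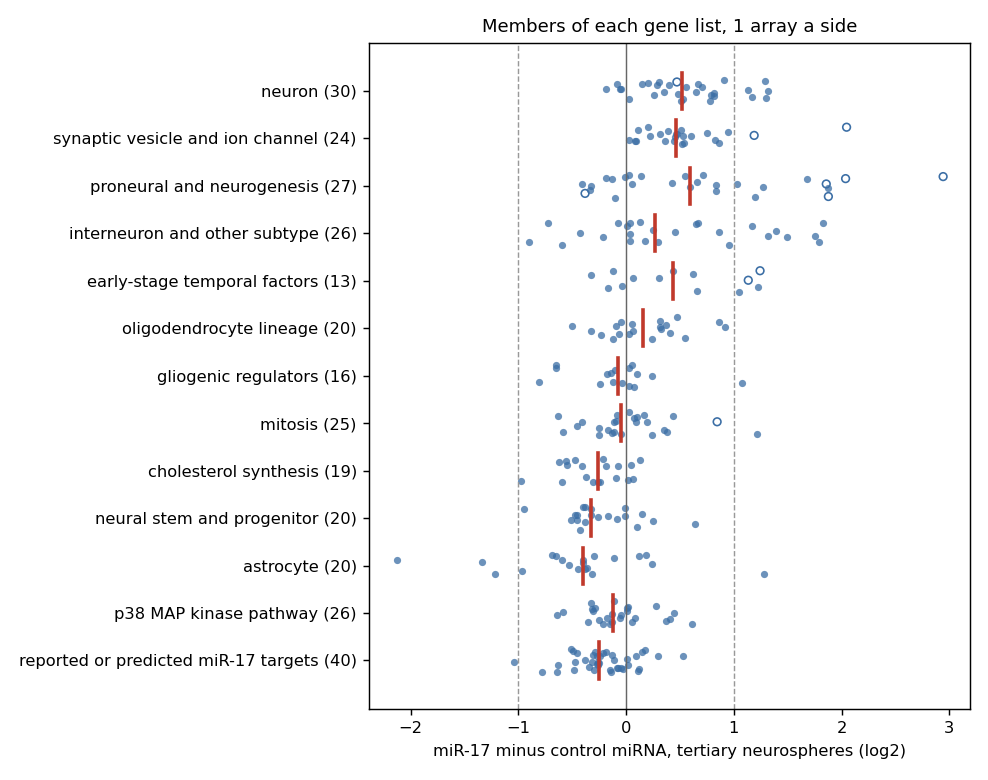
Each point is 1 gene, placed on the x axis by its log2 level with miR-17 minus that with control miRNA in tertiary neurospheres; filled points were well above background on both arrays, open points were not, red bars are list medians, dashed lines mark 2-fold and the number of genes is in brackets. The neuron, synaptic and proneural lists lie mostly right of 0 (medians 0.52, 0.46 and 0.59), and the astrocyte and target lists mostly left (-0.40 and -0.25).

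Synaptic vesicle and ion channel genes were all on the higher side: 24 of 24 compared members had a positive difference, from 0.02 (Snap25) upwards, with a median of 0.46. All of the 22 measured on both arrays were positive, and 0 of them reached 2-fold. The other members entered through the miR-17 array alone, so the filter favoured the higher side for them. The calls at 2-fold were 2 genes dim with control miRNA, the vesicle priming protein Unc13a, at least 1.44-fold higher, and the glycine receptor subunit Glra2, at least 2.23-fold. Among members measured on both arrays the sodium channel Scn3a differed by 0.86 and the NMDA receptor subunit Grin1 by 0.75. On 22 of the 24 the miR-17 level lay between the 2 controls. After normexp the list median was 0.30.

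Proneural and neurogenesis genes, which drive progenitors into the neuronal path, had 9 of 27 members higher at 2-fold and 0 lower, but 4 of the 9 were dim with control miRNA. Of the 22 measured on both arrays 5 were higher. Scrt1, a zinc finger repressor of newborn neurons (chromosome 15, 76346633 to 76346692), was -1.15 with control miRNA, 0.72 with miR-17 and 1.28 with control shRNA, 3.66-fold higher with miR-17. Ebf3, a helix-loop-helix factor of early neurons (chromosome 7, 144385490 to 144385549), was -1.22, 0.46 and 0.25, so here the miR-17 array lay above both controls. Insm1, a zinc finger factor of basal progenitors, differed by 1.19 and Ebf1 by 1.27. The dim genes have only a bound: Nhlh2 was at least 3.48-fold higher and Atoh1 2.76-fold, while Neurod6 and Neurod1, at 1.67- and 1.56-fold, are not shown to reach 2-fold. Some early-acting members had differences below 0: Neurog1 differed by -0.41, Neurog2 by -0.38 and Dll1 by -0.18. The list median was 0.49 with both arrays above background and 0.19 after normexp. The median of miR-17 minus the control shRNA was -0.16.

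Among genes of interneurons and other neuronal subtypes 7 of 26 were higher at 2-fold and 0 lower, with a median of 0.27. The LIM homeobox genes Lhx1 (chromosome 11, 84331888 to 84331947) and Lhx5 (chromosome 5, 120891144 to 120891203), both expressed in early interneurons, were 3.55- and 3.37-fold higher. Lhx1 was -3.26, -1.44 and -0.51 with control miRNA, miR-17 and control shRNA, and Lhx5 was -1.64, 0.11 and 0.46. A second Lhx1 probe differed by 0.78. Tal1, a helix-loop-helix factor of V2b interneurons (chromosome 4, 114744219 to 114744278), was -0.77, 0.72 and 0.86 on these arrays. Its relatives in the same GABAergic program were also higher, Tal2 by 1.79 and Gata2 by 1.39, and so was Gad1, which makes GABA, by 1.31. The other GABA enzyme, Gad2, differed by 0.03. In the motor neuron and cholinergic list the median was 0.48 over 12 genes, and Slc18a3, the vesicular acetylcholine transporter, was the only member at 2-fold (1.43), while the choline acetyltransferase gene Chat differed by -0.68. After normexp the medians of these 2 lists were both 0.09.

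Early-stage temporal factors, genes high in young neural progenitors, had 4 of 13 members higher at 2-fold and a median of 0.43, and 2 of the 4 were dim with control miRNA. Onecut2 was -1.27 with control miRNA, -0.05 with miR-17 and 0.53 with control shRNA, and Onecut1 was -2.20, -1.15 and -0.42. Both are cut-homeobox factors of early-born neurons. Igf2bp1 and Hmga2, growth-associated genes of early progenitors, were the dim ones, at least 1.61- and 2.19-fold higher. Lin28b, a repressor of let-7 processing, differed by 0.62 at levels of -3.38 and -2.77, against 0.91 on the control shRNA array. Lin28a differed by -0.33. Nr2f1 and Nr2f2, the orphan nuclear receptors COUP-TFI and COUP-TFII, differed by -0.13 and 0.43. For 10 of the 13 members the miR-17 level lay between the 2 controls. After normexp the list median was 0.14.

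**Figure D2:**
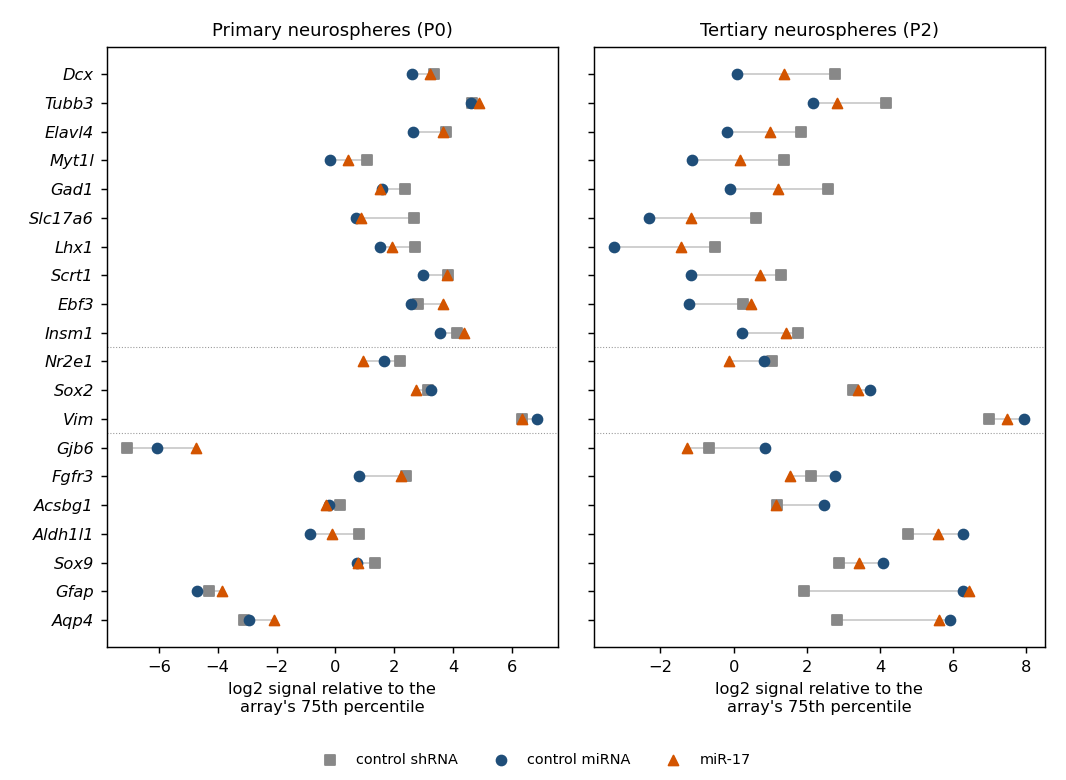
Log2 signal relative to the array's 75th percentile (x axis) of 20 genes on the control shRNA, control miRNA and miR-17 arrays, 1 array per point, at P0 on the left and P2 on the right; dotted lines part the neuronal and neurogenic genes, the stem cell genes and the astrocyte genes. At P2 the miR-17 triangle lies between the controls for Dcx, Myt1l and Lhx1, below both for Gjb6 and Nr2e1, and beside the control miRNA for Gfap (6.44 against 6.26).

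Astrocyte genes were lower for 16 of 20 members, with 3 lower and 1 higher at 2-fold. For 11 of the 20 the miR-17 level lay between the 2 controls, and 0 were 2-fold below both. Against the control shRNA the list was higher with miR-17, with a median difference of 0.73. Gjb6, the gap junction protein connexin 30 (chromosome 14, 57742226 to 57742285), was 0.86 with control miRNA, -1.26 with miR-17 and -0.66 with control shRNA, 4.38-fold lower with miR-17 and below both controls. Acsbg1, an acyl-CoA synthetase (chromosome 9, 54453010 to 54453069), was 2.48, 1.15 and 1.19, and Fgfr3, an FGF receptor of astrocyte precursors, was 2.77, 1.55 and 2.12. A second Fgfr3 probe differed by -0.49, and the mean of its probes, -0.86, is under 2-fold. Slc4a4, a bicarbonate transporter, differed by -0.97, Aldh1l1, a folate enzyme, by -0.69 and Sox9, a regulator of glial fate, by -0.65. The marker Gfap, intermediate filament of mature astrocytes, differed by 0.19 and Aqp4, the water channel, by -0.32. The member on the other side was Atp1b2, a sodium pump subunit, at 5.28 with control miRNA, 6.56 with miR-17 and 5.81 with control shRNA. Fewer cells of a type and less RNA per cell cannot be told apart in such bulk samples, for these lists and for the neuronal ones.

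Neural stem and progenitor genes showed smaller differences of the same sign, with 16 of 20 lower and 0 past 2-fold either way. Nr2e1, the nuclear receptor TLX that maintains neural stem cells (chromosome 10, 42281826 to 42281885), was 0.83 with control miRNA, -0.12 with miR-17 and 1.06 with control shRNA. The intermediate filament genes Vim and Nes differed by -0.47 and -0.46, the fatty acid binding protein Fabp7 by -0.38 and Sox2 by -0.33. Notch1 was the member farthest on the other side, at 0.64. Gliogenic regulators had a median of -0.07, with Nfia, which opens astrocyte genes, at -0.81 with a second probe at -0.16, Id1 at -0.65 and Lhx2 at 1.08. Of the JAK-STAT components, through which cytokines drive astrocyte differentiation, 12 of 17 were lower (median -0.15): the shared receptor chain Il6st by -0.88, Jak1 and the receptor Cntfr each by -0.65, the inhibitor Socs1 by -0.64 and Stat3 by -0.48. A second Cntfr probe differed by 0.37, for a mean of -0.14. For 10 of the 17 JAK-STAT members the miR-17 level lay between the 2 controls. Against the control shRNA the JAK-STAT list was higher with miR-17, with a median difference of 0.57. Oligodendrocyte genes had a median of 0.15 with 0 of 20 past 2-fold, as with Enpp6 at 0.92 and Mbp at -0.50, though their probes ranged from 0.16 to 0.92 and from -0.96 to 0.42.

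Candidate targets were read in a list of 40 genes reported or predicted for miR-17, of which 31 were lower and 9 higher, against 53.3% lower over all genes with a symbol. Only Fjx1 reached 2-fold. The list median was -0.25, and stayed between -0.27 and -0.18 under every processing tried. Levels lay between the 2 controls for 21 of the 40. Against the control shRNA the targets were not lower, with a median of miR-17 minus the control shRNA of 0.10. The median of control miRNA minus control shRNA was 0.30. Fjx1, a secreted planar polarity kinase relative (chromosome 2, 102289689 to 102289748), was 4.56 with control miRNA, 3.52 with miR-17 and 3.77 with control shRNA. Zbtb4, a zinc finger repressor, was 2.38, 1.59 and 1.99, and Jak1 was 3.66, 3.01 and 2.62. For Ccnd1, cyclin D1, the control miRNA and miR-17 arrays read -0.15 and -0.79 and the control shRNA array 2.00.

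Cell cycle brakes in the list were lower by smaller amounts: the retinoblastoma relatives Rbl2 and Rbl1 by -0.50 and -0.29, Wee1 by -0.46 and the CDK inhibitor Cdkn1a by -0.48. The 3 Cdkn1a probes disagreed, from -0.88 to 0.45, and the last was dim with control miRNA. Stat3 was read by a probe at -0.48 and a fainter one at 0.03. Of the signalling targets, Bmpr2 differed by -0.14, Smad4 by 0.11 and Tgfbr2 by 0.17. A second Smad4 probe differed by 0.66 and a second Tgfbr2 probe by -0.34. Vegfa, at 0.52, was the highest member by the probe used for each gene.

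Mapk14, the p38 alpha kinase, was read by 2 probes. The brighter (chromosome 17, 28885290 to 28885349) was 1.82 with control miRNA, 1.83 with miR-17 and 1.95 with control shRNA, a difference of 0.01. The dimmer one, at -4.24 and -4.73, differed by -0.49. These are RNA levels and carry no information on the protein. In the wider p38 pathway list 16 of 26 were lower (median -0.12, or 0.27 against the control shRNA) and 0 passed 2-fold. Its other kinases Mapk11, Mapk12 and Mapk13 were higher by 0.41, 0.45 and 0.61, and the adaptor Tab2 and the upstream kinase Map3k5 (ASK1) were lower by -0.58 and -0.32. Mapk13 was faint, at -3.83 with control miRNA and -3.22 with miR-17, and differed by 0.16 after normexp. At P0 Mapk11, Mapk12 and Mapk13 differed by -0.16, -0.23 and -0.97.

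Sites for the seed can be sought only in the probes, which are 60 bases of the sense strand. The letters GCACTTT pair with bases 2 to 8 of miR-17-5p, and GCACTTTA is the same match followed by A. Of all probes that entered, 0.398% held the first and 0.0904% the second, read on the sense strand only. Among genes, 104 had the first in the probe used, and 67 of them (64.4%) were lower with miR-17, against 50.8% of the genes without it. Their median was -0.11, against -0.01 without the match. For the 24 genes with the second the median was -0.26 and 70.8% were lower. The 6-letter match CACTTT, which the 7-letter one contains, was in 533 genes with a median of -0.03. In primary neurospheres the same 104 and 24 genes had medians of -0.04 and 0.05.

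Seeds of other miRNAs served for comparison. Matches to miR-19a and miR-19b (TTTGCAC, which can overlap the miR-17 match by its last letters) were in 129 genes with a median of -0.07 and 65.1% lower, those to miR-18a (GCACCTT) in 95 genes with -0.03, those to miR-92a (GTGCAAT) in 81 with -0.03 and those to miR-17-3p (ACTGCAG) in 113 with 0.00457. The miR-19 group also leaned towards lower values, but it holds genes that carry the miR-17 match. The probes of Il25 and Cast printed below hold both matches. Genes with both were not set apart, so the miR-19 group is not a separate comparison. A match in a probe is a description and not a site, and whether it lies in a 3′ untranslated region is not known here.

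Some matching stretches are printed because they are where the seed and the measured probe coincide. They were chosen after their values were seen. The match is in capitals, and the probes lie on mm9.
Il25: gaaactctgacttttGCACTTTttg
Cybrd1: tttagctataaatgtGCACTTTtta
Zdhhc1: attcgcgtaacgagtGCACTTTAggg
Cast: cctttacaaacctttGCACTTTAtat
Stat3: ggaactcctggctctGCACTTTcaa
Txnip: aaggtgatgttcttaGCACTTTAgct
Il25, the cytokine interleukin 25 (chromosome 14, 55554319 to 55554378), had the lowest value of the 80 genes that carry a match and a usable symbol, -1.38 at P2 and 0.23 at P0. Cybrd1, a ferric reductase, differed by -0.92 at P2 with its second probe at -0.41. Zdhhc1, a palmitoyltransferase, differed by -0.76 at P2 and 0.06 at P0, while Cast, the calpain inhibitor calpastatin, differed by -0.59 and -0.70. The Stat3 probe with the match is the brighter one, at -0.48. Txnip, a thioredoxin inhibitor with the 8-letter match, was 0.29 higher at P2 and 0.80 higher at P0. Relative to both P2 controls, the miR-17 level lay between them for Stat3 and Cast. It lay below both for Il25, Cybrd1 and Zdhhc1, and above both for Txnip. Against control miRNA, 58 of the 80 genes were lower and 22 higher. The highest was Fut1, a fucosyltransferase, at 2.05, but it was dim with control miRNA. Its level there was -6.29, under that array's detection floor of -5.00, so 2.05 is not a measured size.

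**Figure D3:**
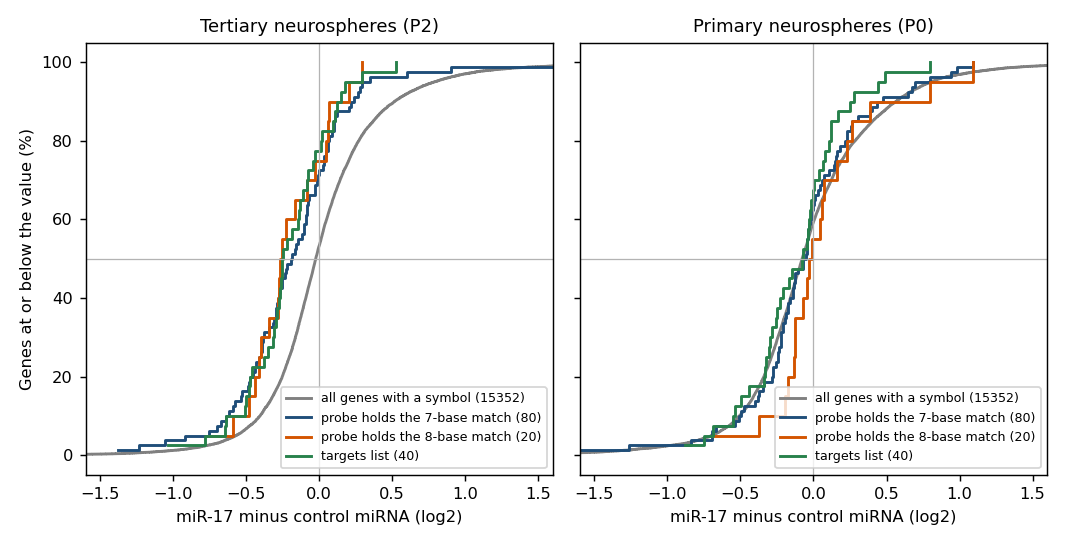
Cumulative share of genes (y axis, percent) at or below each log2 difference between miR-17 and control miRNA (x axis), at P2 on the left and P0 on the right, for genes with a symbol, those whose probe holds the 7- or 8-base seed match, and the 40 listed targets. At P2 the 3 coloured curves lie left of the grey one (targets median -0.25 against -0.02 for all genes with a symbol), and at P0 the median was -0.08 both for the targets and for all genes with a symbol.

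The host transcript of the miR-17 cluster, Mir17hg (chromosome 14, 115445828 to 115445887), was 2.22-fold higher with miR-17, at -2.28 against -3.43. The control shRNA array was higher still, at -0.75, and at P0 the difference was -0.24. At P2 it was under 2-fold after normexp (0.58) and quantile normalization (0.98). Mcm7, host of the related miR-106b cluster, differed by -0.02. Of 18 genes of the microRNA machinery 0 passed 2-fold (median 0.09).

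The largest single differences among genes measured on both arrays were spread over several functions. Capn11, a calpain protease (chromosome 17, 45767154 to 45767213), was 3.68 with control miRNA, 1.17 with miR-17 and 2.99 with control shRNA, 5.68-fold lower with miR-17 and below both controls. Foxb1, a forkhead factor of the caudal neural tube and hypothalamus (chromosome 9, 69605559 to 69605618), was -1.15, -3.25 and 0.22, and Pdyn, the opioid precursor prodynorphin, was -0.60, -2.21 and 2.88. Tmem255a and Sfrp5, a secreted Wnt inhibitor, were also at least 2-fold below both controls, by 1.49 and 1.46 log2 units from the nearer one. Adra2a, an adrenergic receptor, was 3.21-fold lower than with control miRNA at 0.83, and lay above the control shRNA at 0.38. Gdf10, a BMP-related growth factor dim with miR-17, was at least 5.64-fold lower.

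On the higher side, Nts, the neuropeptide precursor neurotensin (chromosome 10, 101944967 to 101945026), was -4.79 with control miRNA, -2.29 with miR-17 and -1.70 with control shRNA, 5.66-fold higher with miR-17. After normexp its difference was 0.95. Cck, the precursor of cholecystokinin, was -2.69, -1.04 and 0.90, and the cadherin Cdh22 was -0.65, 0.99 and 2.26. Snhg10, a host of small nucleolar RNAs (chromosome 12, 106268866 to 106268925), was 0.19, 1.95 and 1.10 and so lay above both controls. Dct, a melanin synthesis enzyme, was -1.40 with control miRNA and 0.26 with miR-17, and not well above background with control shRNA. Foxa2, a floor plate and endoderm factor, was 2.48-fold higher with miR-17 and Postn, a matrix protein of mesenchyme, 2.56-fold.

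Cholesterol synthesis genes were lower for 15 of 19 (median -0.26), with the sterol sensor gene Insig1 at -0.98, and 0 passed 2-fold. Cyclin-dependent kinase inhibitors were lower for 6 of 8 (median -0.27), with Cdkn2a at -0.90, Cdkn2b at -0.77 and Cdkn1c, at 0.69, on the other side. For 7 of these 8 the miR-17 level lay between the 2 controls, and their median against the control shRNA was 0.54. Mitosis and S phase genes had medians of -0.05 and -0.10 with 1 and 0 members past 2-fold. Forebrain and midbrain genes had a median of 0.29, with 13 of 21 higher and 8 lower. The interneuron homeobox genes Dlx1, Dlx2, Dlx5 and Dlx6 were at 0.75, 0.86, 0.90 and 0.99, and Dlx6 was at 0.30 after normexp. The highest and lowest members, Nkx2-1 at 1.84 and Pax5 at -1.495, were not above background on both arrays. Interferon response genes had a median of -0.14 and included Ifit3, an antiviral protein, at -1.15. Pluripotency genes had a median of -0.31 over 13 members, and Dppa5a, a stem cell marker, differed by -1.32. Markers of other cell types that such cultures could hold gave medians of 0.18 for crest and mesenchyme, 0.02 for endothelium, blood and microglia, and -0.05 for mesoderm and endoderm, and their part in the results was not tested.

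Primary neurospheres gave the same contrast on 2 arrays that the P2 comparison does not share. Of the genes above background there, 692 were higher with miR-17 at 2-fold (2.92%) and 379 lower (1.6%). Across 23725 genes the differences at P0 and P2 had a Pearson r of 0.18 and a Spearman rho of 0.20, and 57.6% had the same sign; genes are not independent replicates, and each passage's pair shares its own arrays. Of the genes higher at 2-fold, 95 were so at both passages, 12.9% of those at P2 and 13.7% of those at P0, and of the lower genes 11, 4.80% and 2.90%. The neuronal lists kept their side at both passages. For neuron genes 25 of 30 were higher at both (P0 median 0.39), and for synaptic genes 22 of 24 (0.41). Of 20 neural stem genes 15 were lower at both passages (-0.44). The astrocyte list changed side, with a P0 median of 0.33 and 6 of the 18 members compared at P0 lower at both passages. The target list had 23 of 40 lower at both, with a P0 median of -0.08, which was also the P0 median of all genes with a symbol. Each of these list counts takes a single direction, whereas the 57.6% over all genes takes in both directions and is not their background. The share of all genes in a single direction at both passages is not given here.

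Of single genes chosen for a difference in the same direction at both passages, Mgp, matrix Gla protein, an inhibitor of calcification (chromosome 6, 136821125 to 136821184), was -4.08 and -1.97 with control miRNA and miR-17 at P0, and 0.24 and 1.75 at P2. Car3, a carbonic anhydrase, was -0.29 and -2.28 at P0 and -0.67 and -2.52 at P2. Ephx1, an epoxide hydrolase, was 1.20 and 0.03 at P0 and 6.07 and 5.02 at P2, and Nrip3 was -2.68 and -3.72, then 1.03 and -0.18. A second Ephx1 probe differed by -0.68 at P2.

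**Figure D4:**
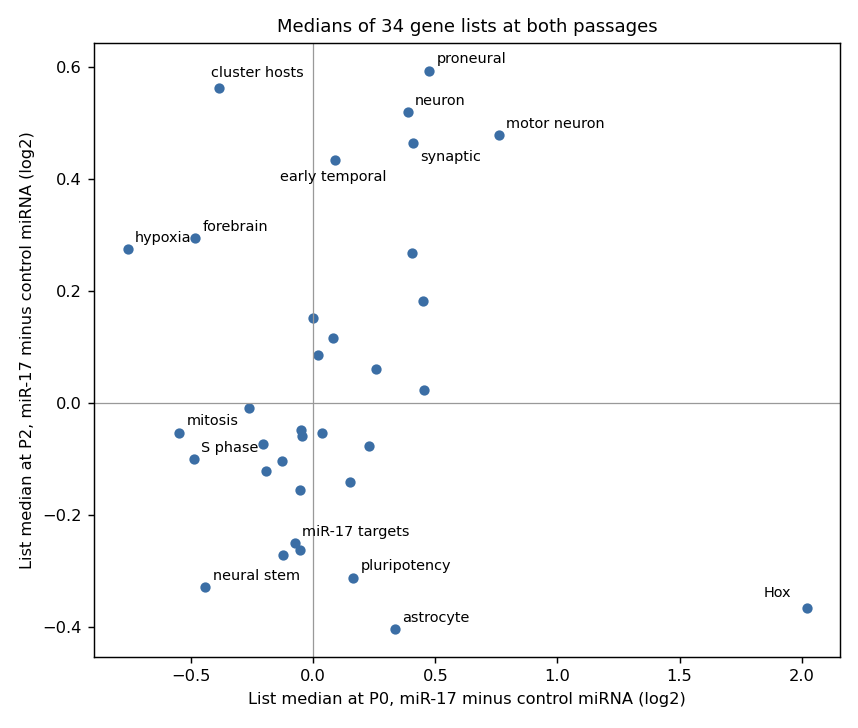
Median difference between miR-17 and control miRNA (log2) of each of 34 gene lists, at P0 on the x axis and P2 on the y axis, 1 array per side. The neuron, synaptic, proneural and motor neuron lists lie above 0 on both axes and the neural stem list below 0 on both, while the Hox list is at 2.02 at P0 and -0.36 at P2.

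A limma fit with condition and passage took in all 8 arrays, so the miR-17 effect is an average over both passages. Each condition had 1 array per passage. The SEs therefore reflect how differences between conditions vary from passage to passage, knockdown arrays included, and not the spread of replicate cultures. Of 27086 genes 0 passed an adjusted p of 0.05 in either direction (0%), and 274 had an unadjusted p under 0.05 (1.01%), 206 higher and 68 lower. Tal1 had an average of 1.69 (SE 0.32, adjusted p = 0.99982 in limma) and was higher with miR-17 in 2 of 2 pairs. Slc18a3 averaged 1.27 (SE 0.25) and Nr2e1 -0.84 (SE 0.25), with the same adjusted p in limma. A second fit asked whether the change from P0 to P2 in miR-17 neurospheres differed from the mean change in the 2 control conditions. It called 0 genes (0%), with 295 at an unadjusted p under 0.05 (1.09%), and so gives no gene for which passages are shown to differ.

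The P2 difference was also set beside 2 contrasts that share no array with it. Across 24221 genes it had an r of 0.15 and a rho of 0.17 with the knockdown of Nr2f1 and Nr2f2 at P2, in which 1778 genes were higher (7.34%) and 2360 lower (9.74%) at 2-fold. Of the genes lower at 2-fold with miR-17, 108 were also lower in the knockdown, 40.8% of the former and 4.58% of the latter. The higher genes shared 186, 24.7% and 10.5%. Another 66 were higher with miR-17 and lower in the knockdown, and 25 lower with miR-17 and higher in the knockdown. Capn11 (2.99 with control shRNA and 0.65 in the knockdown), Gjb6 (-0.66 and -3.65) and Pdyn (2.88 and -1.97) were lower in both. Against the change from P0 to P2 in control shRNA neurospheres the r was -0.09 and the rho -0.10 over 23826 genes. There, 184 genes higher with miR-17 had been lower at P2 and 100 lower with miR-17 had been higher at P2, against 116 and 29 that went the same way.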

How the data were processed

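Total RNA (50 ng, Cy3) was read on Agilent SurePrint G3 mouse arrays; the file headers name Feature Extraction 10.7.3.1. All 8 arrays were on 1 slide with 1 scan, miRNA arrays in a column of their own. Spot values in the deposited scanner output are intensities, already background-subtracted and detrended per the file headers. The authors' deposited table of signal values is the same intensity over a constant for each array, on a linear scale and not centred by gene (column medians 0.0814 to 0.145); the sources used here do not give the origin of the constants.

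Control spots and 1104 outlier spots were left out, leaving 55653 probes. The log2 intensity minus each array's 75th percentile was averaged per probe. Probe coordinates are mm9, per the file headers. A gene was read by its brightest probe among those well above background on at least 1 of the 2 arrays. Names came from the reference by accession (15039 genes), symbol (1626) or synonym (305), otherwise from the file (7848). A probe dim on 1 array gives a bound ("at least"), against that probe's own signal or, where higher, the array's detection floor, its lowest signal among probes well above background. Spot noise (coefficient of variation 4.75% to 5.18%) is not culture noise, and the number of arrays limits precision. The labels do not say whether cultures were independent.

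limma 3.58.1 (R 4.3.3) was fitted on 27086 genes above background on at least 2 arrays, with 3 residual degrees of freedom, or 1 for the interaction, two-sided with Benjamini-Hochberg adjustment. The fit was also run on simulated data, and whether it could call differences of a given size is not reported here.

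Genes named were the 15 highest and lowest measured on both arrays, the 6 largest bounds each way, the 10 farthest above or below both P2 controls, up to 4 per list by size, any member of the target and p38 lists, Nr2f1 and Nr2f2, the 10 smallest p each way in limma, and the 8 most alike at both passages each way; not all are printed, and list members outside the rule were named after their values were seen. Members and 34 gene lists were chosen with earlier results of these data known. Alternatives were normexp (offset 50), quantile normalization, median centring, other filters, the mean of probes, the authors' table, other folds and each array left out. Some genes are not reported here.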

Additional observations from a re-analysis of the deposited data

Results flagged for a closer look

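For 5 gene lists the median difference between miR-17 and control miRNA had opposite signs at the 2 passages, each by at least 0.25 on the log2 scale with 1 array per side. The difference between passages was not tested for lists, and the limma interaction called 0 single genes. The Hox list was at 2.02 at P0 and -0.365 at P2, with Hoxc6, above background on all of these arrays, at 2.64 and -1.39. Of the 14 Hox genes compared at P0, 14 were above background with miR-17 and 7 with control miRNA, so members that passed only through the miR-17 array had to lie on the higher side. The astrocyte list was at 0.334 at P0, over 18 members of which 16 were above background with control miRNA, and -0.402 at P2. Forebrain and midbrain genes were at -0.483 and 0.295, with Six6, an eye field factor, at -4.04 and 0.39. Hypoxia and glycolysis genes were at -0.759 and 0.275, with hexokinase Hk2 at -1.16 and 1.41. The 2 hosts of miR-17 family clusters were at -0.387 and 0.563.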

How the results depend on the processing

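Counts at 2-fold, 890 higher and 334 lower and 244 above and 95 below both controls, were 77, 75, 23 and 22 after normexp, 1600, 1229, 584 and 338 with no filter on dim probes, and 260, 167, 57 and 48 with both arrays above background. At 1.5-fold they were 2501, 1209, 790 and 334, and at 4-fold 145, 55, 36 and 12. They were within 1.5 times the main counts with quantile normalization, median centring, the mean of probes and the authors' table. Higher genes made up 72.7% of calls, 50.7% after normexp, 56.6% with no filter and 60.9% with both arrays above background. The proneural median, 0.59, was 0.19 after normexp and 0.49 with both arrays above background. The neuron, target, astrocyte and neural stem medians moved by less than the spot noise of a difference (0.098). Medians near 0 changed sign: endothelial, blood and microglia to -0.13 (normexp), -0.025 (quantile), -0.0013 (median centring) and -0.028 (mean of probes), gliogenic to 0.0028 (quantile), unfolded protein to 0.018 (quantile) and 0.086 (mean of probes), and with the mean of probes mesoderm and endoderm to 0.17 and mitosis to 0.028. Of 1288 alternative values for 191 named genes 1 reversed, Matn1 from 1.67 to -0.042 after normexp. Of 111 named genes at 2-fold 72 were under it in at least 1 alternative, 4 more had no value in some, and 43 reached it after normexp. For the effect over both passages limma called 0 genes under each alternative and with each array left out (0 to 0), with 80 to 2258 at an unadjusted p under 0.05 (2258 with the 4 miRNA arrays alone). The interaction, rerun with normexp, quantile normalization and the authors' table, called 0, with 214 to 329 unadjusted. With 3 and 1 residual degrees of freedom these counts of 0 say nothing about stability. No paired analysis was possible because replicate numbers pair no arrays within a group of 1; passage was the block in the limma fits.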
